A study of Mus musculus with 4 samples.

Results

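The 10 genes described here are products of osteoblasts, the cells that lay down bone, and of osteocytes, the cells that osteoblasts become once the matrix encloses them. They were taken by name (Ibsp, Bglap, Bglap2, Sp7, Alpl, Dmp1, Phex, Mepe, Mmp13 and Spp1), through the symbols of their Ensembl identifiers, from the 37239 gene identifiers of the deposited tables. Whole cochleae were collected at postnatal day 8 from cello mice (Ikzf2cello/cello) and from their wild-type littermates (Ikzf2+/+), with 2 libraries per genotype. Cello is a germline point mutation that alters helios, the zinc finger transcription factor encoded by Ikzf2, so every cell of the mutant carries it, those of bone included. The labels call the libraries biological duplicates and do not give the number of animals in each, so p-values measure the spread between these 4 libraries, which may in part be technical. Values are CPM, read counts scaled to the same total of counted alignments in each library, which numbered 42450937 and 47463910 in cello and 49719984 and 42152616 in wild-type.

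The cochlea of the mouse lies in the otic capsule, a shell of bone that forms on a cartilage template. Osteoblasts are directed by the transcription factors Runx2 and Sp7, secrete type I collagen and then non-collagenous proteins, and mineralize the matrix with the help of alkaline phosphatase. Among these proteins, bone sialoprotein, osteopontin, dentin matrix protein and MEPE are acidic phosphoproteins of 1 family, whose genes lie side by side on chromosome 5. Osteocalcin marks mature osteoblasts, and PHEX, DMP1 and MEPE are products of osteocytes that act on phosphate and mineral. A whole cochlea therefore holds RNA of sensory epithelium, lateral wall and nerve together with that of whatever capsule bone and marrow came with it. In such bulk samples fewer cells of a type and less RNA per cell cannot be told apart.

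Expression of these genes did not separate the genotypes, but it separated the cello libraries from each other. All 10 genes had their highest value in cello replicate 1. Wherever cello replicate 2 lay, cello replicate 1 was above both wild-type libraries in 32.5% of the 14721 genes tested. In 9 of the 10, all but Spp1, cello replicate 2 lay below both wild-type libraries, as it did in 43.0% of all genes tested. In 9 of the 10 genes the value of cello replicate 1 was at least 2-fold that of cello replicate 2 on the log2(CPM + 0.5) scale, whereas 1.52% of all genes tested showed such a gap. A gap of that size in the other direction was found in 0.632% of all genes and in 0 members, and cello replicate 1 was the higher by any amount in 44.5% of all genes and in 10 members. The members were chosen with earlier results of these data known, so these shares describe the gap and do not test it. No genotype difference passed the test in any member.

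The windows before the start sites of 5 members are shown because these are the 4 genes with the largest ratios between the cello libraries (Mepe, Mmp13, Bglap and Ibsp) and the gene with the smallest (Spp1). Each window holds the 250 bases that precede the RefSeq start site in GRCm38.p6, written 5′ to 3′ on the strand of the gene. Capitals mark every match to ACCACA or its reverse complement TGTGGT, the core bound by RUNX factors, and to CCAAT or its reverse complement ATTGG. The windows of Mepe (chr5:104325079-104325328, plus strand), Mmp13 (chr9:7272264-7272513, plus strand), Bglap (chr3:88384467-88384716, minus strand), Ibsp (chr5:104299037-104299286, plus strand) and Spp1 (chr5:104434861-104435110, plus strand) read as follows.
Mepe: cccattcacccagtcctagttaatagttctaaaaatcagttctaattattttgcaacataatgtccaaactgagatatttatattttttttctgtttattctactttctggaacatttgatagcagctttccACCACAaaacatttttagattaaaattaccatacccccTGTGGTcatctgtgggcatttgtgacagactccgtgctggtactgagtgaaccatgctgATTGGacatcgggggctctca
Mmp13: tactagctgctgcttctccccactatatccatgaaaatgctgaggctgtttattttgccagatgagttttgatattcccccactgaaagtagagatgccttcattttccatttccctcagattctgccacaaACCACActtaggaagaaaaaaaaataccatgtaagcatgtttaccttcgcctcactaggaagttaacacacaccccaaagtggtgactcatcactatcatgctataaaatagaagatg
Bglap: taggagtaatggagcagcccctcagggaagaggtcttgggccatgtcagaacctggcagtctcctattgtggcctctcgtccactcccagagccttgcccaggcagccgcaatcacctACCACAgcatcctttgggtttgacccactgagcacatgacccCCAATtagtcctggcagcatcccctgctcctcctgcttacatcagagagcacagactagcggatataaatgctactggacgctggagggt
Ibsp: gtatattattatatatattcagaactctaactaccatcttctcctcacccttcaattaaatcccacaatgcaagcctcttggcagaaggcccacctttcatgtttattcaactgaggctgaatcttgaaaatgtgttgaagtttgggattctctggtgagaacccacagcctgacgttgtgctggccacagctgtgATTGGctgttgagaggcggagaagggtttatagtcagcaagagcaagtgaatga
Spp1: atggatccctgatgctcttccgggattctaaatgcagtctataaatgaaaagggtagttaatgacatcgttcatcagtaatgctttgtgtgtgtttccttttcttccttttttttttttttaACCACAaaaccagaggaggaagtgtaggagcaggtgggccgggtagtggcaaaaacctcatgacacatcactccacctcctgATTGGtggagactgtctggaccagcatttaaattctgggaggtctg

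RefSeq's table held 11 windows for 8 members. Sp7 and Bglap2 had no entry. A RUNX core was found in 5 of these 11 windows (1 each of Bglap, Dmp1, Mepe, Mmp13 and Spp1) and in 14.0% of the 32851 windows of the table. Mepe held 2 matches, whereas Ibsp held none in these 250 bases. Alpl, Dmp1 and Spp1 have 2 windows each in the table, and neither window of Alpl held a match to either motif. A CCAAT match was found in 6 of the 11 windows (2 of Dmp1 and 1 each of Ibsp, Bglap, Mepe and Spp1) and in 33.8% of all windows, and the 2 motifs shared 0 bases in the members. The 4 phosphoprotein genes of chromosome 5 all held it, as ATTGG. These matches describe the letters of the windows and not binding.

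Ibsp encodes bone sialoprotein, a matrix protein of osteoblasts that binds hydroxyapatite (ENSMUSG00000029306, chromosome 5, 104299171 to 104311469 of GRCm38, plus strand). It reached 1044 and 204 CPM in cello against 435 and 467 CPM in wild-type. The cello values enclosed the wild-type values, which lay close together. The ratio of cello replicate 1 to cello replicate 2 was 5.11, with a 95% counting interval of 4.999 to 5.22. Such intervals, exact and conditional on the summed reads, cover counting error only, because reads without molecular identifiers are not independent molecules.

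Bglap and Bglap2 encode osteocalcin, the vitamin K-dependent protein of mature osteoblasts, and lie next to each other on the minus strand of chromosome 3 (88383501 to 88384464 and 88377736 to 88378699). Bglap had 193 and 36.6 CPM in cello against 95.4 and 74.4 CPM in wild-type. Bglap2 had 42.2 and 8.34 CPM in cello against 20.6 and 18.0 CPM in wild-type. Both copies therefore followed the same order over the libraries, with the cello values on either side of the wild-type ones. The ratio of cello replicate 1 to cello replicate 2 was 5.28 for Bglap (95% counting interval 5.01 to 5.56) and 5.06 for Bglap2 (4.54 to 5.66). Of the 50-base stretches in the coding transcripts of Bglap, 74.7% also occur in Bglap2. Alignments that were not unique were counted for no gene, so both levels may be too low and the proportion of the copies is uncertain. The level of Bglap was 4.57 and 4.39 times that of Bglap2 in cello and 4.62 and 4.14 times in wild-type, without correction for length. Summed with Bglap3, a further copy, they reached 245 and 50.4 CPM in cello and 124 and 97.2 CPM in wild-type.

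Sp7 encodes osterix, the transcription factor without which osteoblasts do not form (chromosome 15, 102356606 to 102367182, minus strand). Its values were 50.5 and 19.7 CPM in cello and 35.4 and 26.2 CPM in wild-type. Alpl encodes the tissue-nonspecific alkaline phosphatase, which frees phosphate for mineral by cleaving pyrophosphate (chromosome 4, 137741733 to 137796384, minus strand). Alpl stood at 103 and 44.1 CPM in cello against 68.5 and 60.5 CPM in wild-type. In both genes cello replicate 1 was the highest library and cello replicate 2 the lowest, but the ratios between them, 2.56 (95% counting interval 2.37 to 2.77) and 2.33 (2.21 to 2.45), were smaller than that of osteocalcin. These 2 genes act earlier in the osteoblast lineage than Bglap, and Alpl is also made by other cells. Whether either bears on the ratios was not tested.

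Of the members, 3 are osteocyte products. Dmp1, a phosphoprotein that nucleates mineral (chromosome 5, 104202613 to 104214102, plus strand), had 259 and 53.6 CPM in cello against 65.1 and 83.7 CPM in wild-type. Phex, an endopeptidase whose loss in humans causes X-linked hypophosphatemia (chromosome X, 157162075 to 157415312, minus strand), had 168 and 63.0 CPM in cello against 77.0 and 72.1 CPM in wild-type. Mepe, an inhibitor of mineralization (chromosome 5, 104325329 to 104338611, plus strand), had 36.6 and 3.31 CPM in cello against 8.43 and 7.99 CPM in wild-type. In each of the 3, cello replicate 1 lay far above the other libraries and cello replicate 2 lay below both wild-type libraries. The ratio between the cello libraries was 11.1 for Mepe (95% counting interval 9.38 to 13.1, from 1553 and 157 reads), the largest of the 10 members, 4.83 for Dmp1 (4.63 to 5.05) and 2.66 for Phex (2.55 to 2.78). Relative to the wild-type mean, Mepe was 4.46-fold, Dmp1 3.48-fold and Phex 2.25-fold in cello replicate 1, and 0.403-fold, 0.720-fold and 0.844-fold in cello replicate 2.

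Mmp13 and Spp1 departed from this pattern in different ways. Mmp13 encodes collagenase 3, made by osteoblasts and by hypertrophic chondrocytes (chromosome 9, 7272514 to 7283331, plus strand), and had 36.7 and 5.41 CPM in cello against 5.71 and 13.4 CPM in wild-type. The ratio between the cello libraries was 6.77 (95% counting interval 5.93 to 7.76). It was the member in which the wild-type libraries also differed by at least 2-fold, with replicate 2 at 2.35 times replicate 1, and its value in wild-type replicate 1 was close to that in cello replicate 2. Among all genes tested 1.86% differed by at least 2-fold between the wild-type libraries in either direction. Spp1 encodes osteopontin, which osteoblasts and osteoclasts secrete and which many other cells, macrophages and epithelia among them, also make (chromosome 5, 104435118 to 104441050, plus strand). Its values were 715 and 614 CPM in cello against 497 and 623 CPM in wild-type. Here cello replicate 2 lay between the wild-type libraries, and the ratio between the cello libraries was 1.16 (1.15 to 1.18).

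**Figure D1:**
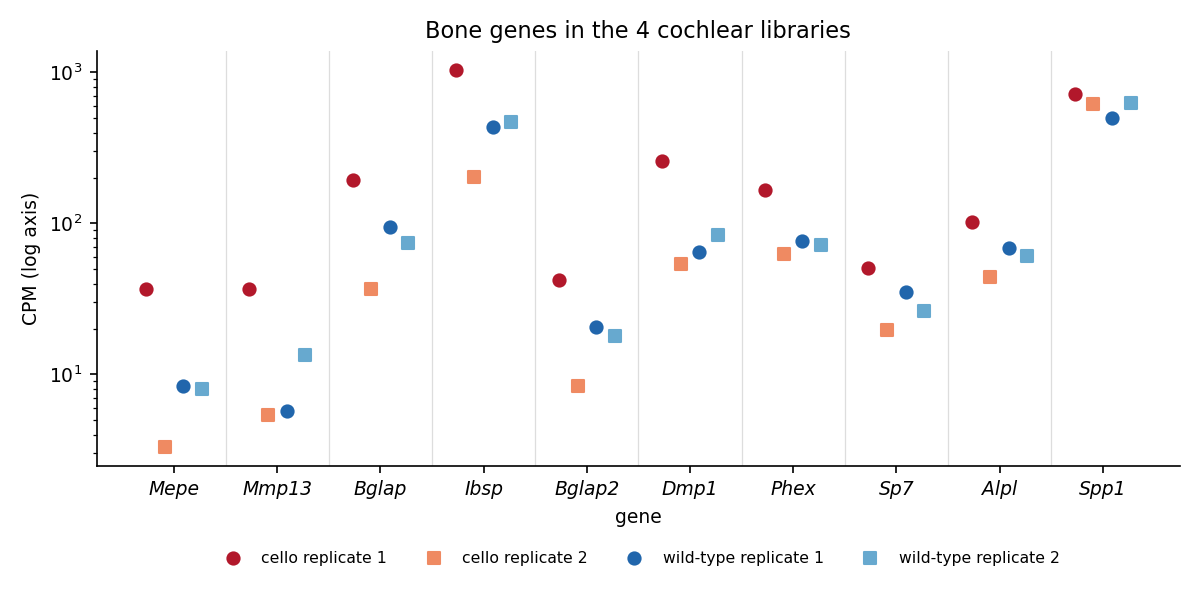
CPM (log axis) of the 10 bone genes in each of the 4 libraries, ordered from the largest to the smallest ratio between the cello libraries; circles are replicate 1 and squares replicate 2. Cello replicate 1 is the top point of every gene, and cello replicate 2 is the lowest point of every gene except Spp1, where it stands at 614 CPM between wild-type values of 497 and 623 CPM.

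Per kilobase of exon, which allows levels of different genes to be compared, Spp1 was the most abundant member in cello replicate 2 and in both wild-type libraries, and Ibsp in cello replicate 1. The means over the 4 libraries were 372 CPM per kilobase for Spp1, 260 for Ibsp, 162 for Bglap, 47.3 for Bglap2 and 41.7 for Dmp1. The remaining genes were lower, at 17.1 for Alpl, 15.1 for Phex, 9.70 for Sp7, 8.37 for Mepe and 5.72 for Mmp13. The levels of Bglap and Bglap2 may be too low, because reads of their shared stretches can fail to align uniquely. The ranges over the libraries overlapped between every gene and the next in this order. Within each library, however, Ibsp was above Bglap, Bglap above Bglap2, Dmp1 above Alpl and Phex above Sp7. The other neighbours in this order did not keep it in every library. Ibsp ranged from 98.8 to 505 CPM per kilobase, which covers the range of Spp1 (302 to 434). Phex and Alpl likewise overlapped, at 10.01 to 26.7 and 10.9 to 25.5 CPM per kilobase. The CPM ratio of Ibsp to Spp1 was 1.46 and 0.332 in cello and 0.875 and 0.749 in wild-type, so these 2 transcripts were not in a constant proportion.

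The members thus fell into 3 sets by the gap between the cello libraries on the log2(CPM + 0.5) scale. Mepe (3.28), Mmp13 (2.65), Bglap (2.38), Ibsp (2.35), Bglap2 (2.27) and Dmp1 (2.26) had gaps above 2. Phex (1.41), Sp7 (1.34) and Alpl (1.21) lay between 1 and 2, and Spp1 stood at 0.22. These boundaries were drawn after the values were seen. The median gap of the members was 2.27, against -0.03 over all genes tested, whose central 95% ran from -0.65 to 0.78. Between the wild-type libraries the median of the members was 0.08, against -0.01 over all genes tested. Without Spp1, the other 9 genes summed to 1932 and 438 CPM in cello and to 811 and 823 CPM in wild-type. The gap between the cello libraries has 1 library on each side, so it has no replicate check and no test.

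**Figure D2:**
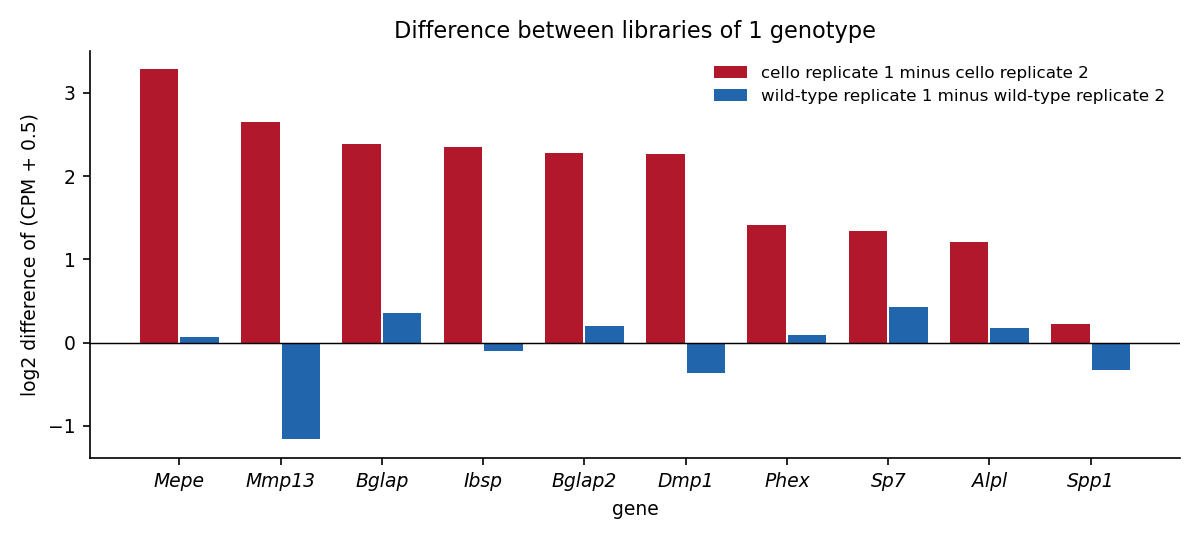
Difference of log2(CPM + 0.5) between replicate 1 and replicate 2, for the cello pair (left bar of each gene) and the wild-type pair (right bar). The cello bars run from 0.22 (Spp1) to 3.28 (Mepe), and the wild-type bars from -1.16 (Mmp13) to 0.43 (Sp7).

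**Figure D3:**
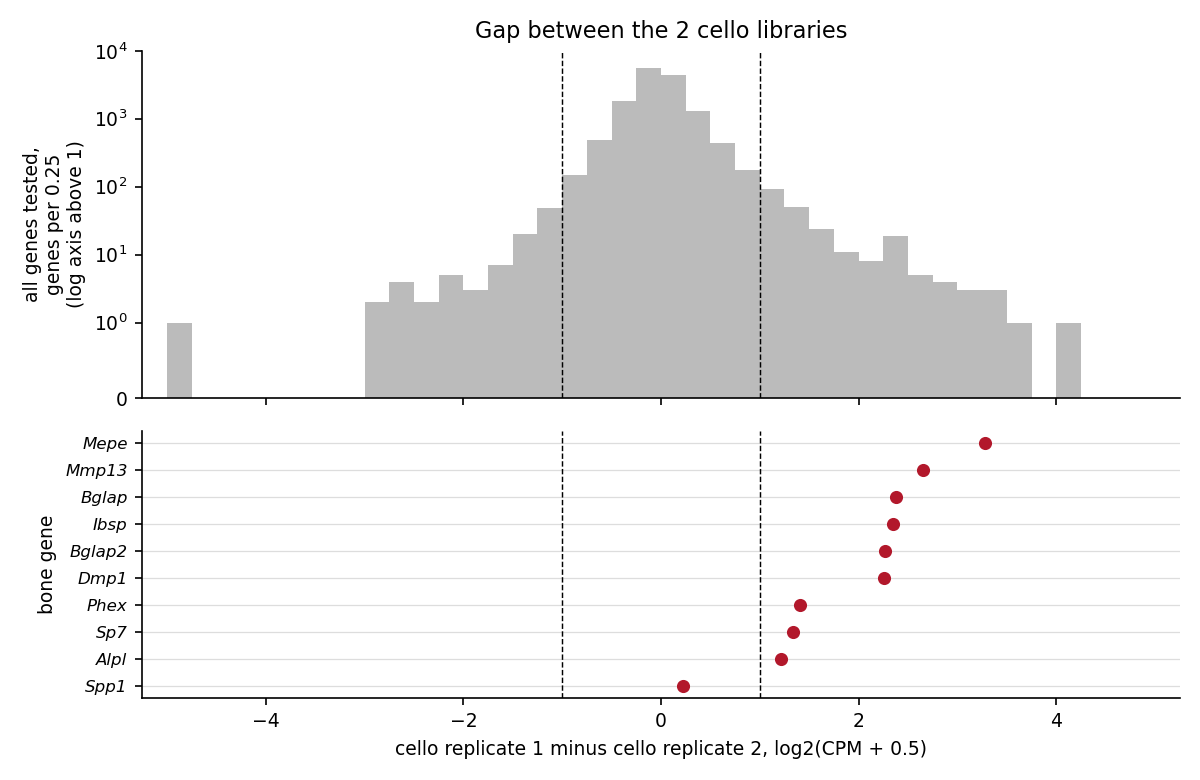
Upper panel, number of genes (log axis above 1) by the difference of log2(CPM + 0.5) between cello replicate 1 and cello replicate 2, in bins of 0.25, over the 14721 genes tested; lower panel, the same difference for each bone gene. Dashed lines mark a 2-fold difference in either direction, which 9 of the 10 bone genes exceed on the higher side.

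In 9 of the 10 members cello replicate 1 lay above both wild-type libraries and cello replicate 2 below both, an arrangement found in 8.91% of all genes tested. Cello replicate 1 was at least 2-fold above the wild-type mean in 7 members (all but Sp7, Alpl and Spp1), against 1.62% of all genes. Cello replicate 2 was at least 2-fold below it in 4 members (Ibsp, Bglap, Bglap2 and Mepe), against 0.489%. Both statements use the same wild-type libraries.

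The comparison of cello with wild-type asks whether transcript levels in the cochlea differ when helios is mutant. All 10 members passed the filter on low values, at least 1 CPM in at least 2 libraries. By limma, 0 of the 10 passed an adjusted p of 0.05 in either direction, as did 0 of the 14721 genes tested, which is 0% of them. At an unadjusted p below 0.05 limma had 0 members and 1603 of all genes. On recovered reads edgeR called 0 members and 0 of all genes, and DESeq2 called 0 members and 116 higher and 79 lower genes overall. Groups overlapped in all 10 members, whereas both cello libraries lay above both wild-type libraries in 16.9% of all genes tested and below both in 28.7%. The median log2 fold change of the members was 0.16, against -0.03 over all genes tested. Of the members 8 of 10 had values above 0, against 6394 of the 14721 genes tested. Bglap and Bglap2 lay just below 0 and turned above it when the libraries were rescaled by TMM.

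The errors of these differences were wide. Ibsp averaged 624 ± 594 CPM in cello and 451 ± 22.4 CPM in wild-type (SD, n = 2 each), with a log2 fold change of 0.04 (SE 0.74, 95% interval -1.84 to 1.91, limma adjusted p = 0.987). Mepe averaged 19.9 ± 23.5 CPM in cello and 8.21 ± 0.306 CPM in wild-type, with a log2 fold change of 0.45 (SE 1.03, limma adjusted p = 0.882). Its interval, -2.17 to 3.06, was the widest of the 10. Dmp1 averaged 156 ± 145 CPM in cello and 74.4 ± 13.2 CPM in wild-type, with a log2 fold change of 0.67 (SE 0.72, limma adjusted p = 0.745). In these genes the SD within cello was many times that within wild-type. Spp1 had the narrowest interval, -0.15 to 0.66 around a log2 fold change of 0.25 (SE 0.16, limma adjusted p = 0.585), with 665 ± 71.1 CPM in cello and 560 ± 89.2 CPM in wild-type (SD, n = 2 each). The values of the other members ran from -0.02 (Bglap2) to 0.67 (Mmp13), with SE from 0.39 to 0.91. In edgeR, which compares mean counts, the log2 fold changes were larger, at 0.51 for Ibsp, 1.32 for Mepe, 1.11 for Dmp1 and 1.19 for Mmp13, with a median of 0.50 over the members and a smallest adjusted p of 0.573. In limma a log2 fold change of 1 lay inside the interval of every member except Spp1, and one of -1 inside that of every member except Spp1, Alpl and Phex. A p above the threshold therefore does not show that the levels were alike.

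The direction depended on which cello library was kept. Without cello replicate 2 the median log2 fold change of the members was 1.18, against -0.04 over all genes tested. Without cello replicate 1 the median of the members was -0.63, against -0.02 over all genes tested. In both fits the remaining cello library is assumed to vary like the wild-type libraries, so only the sizes of the differences are given here. Mepe stood at 2.09 and -1.19 in these fits, Ibsp at 1.21 and -1.14, and Phex at 1.16 and -0.24. Spp1 kept values above 0 in both.

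**Figure D4:**
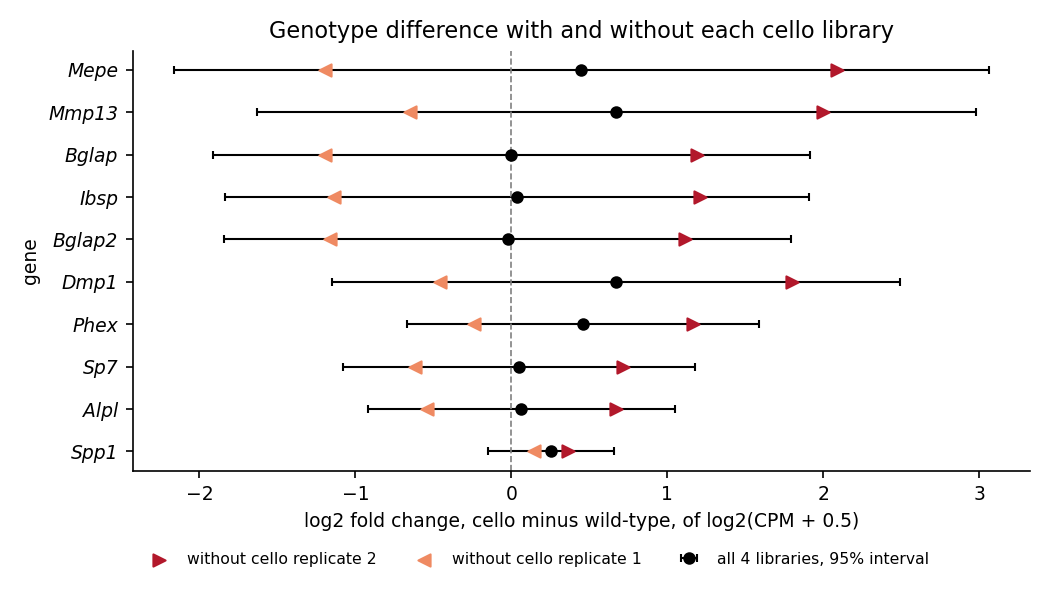
Log2 fold change, cello minus wild-type, of each bone gene from all 4 libraries with its 95% interval (black), without cello replicate 2 (right-pointing triangles) and without cello replicate 1 (left-pointing triangles). For 9 genes the triangles lie on either side of 0, such as 2.09 and -1.19 for Mepe, and for Spp1 both lie above 0.

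Other genes of bone formation were examined as lists written down from general knowledge, with earlier results of these data known. By limma and by edgeR 0 genes of any list passed. DESeq2 called Mgp among the bone lists, and 4 hair cell and lateral wall genes (Kcne1, Ocm, Pou4f3 and Slc26a5) in a list of cochlea markers. Of 10 tested matrix genes 9 were higher in cello replicate 1 than in cello replicate 2, with a median gap of 0.39, and 2 of them by at least 2-fold. These were Col1a1, which encodes a chain of type I collagen, and Ifitm5, a membrane protein of osteoblasts that was named after its values were seen. The matrix gene that went the other way was Postn, also named after its values were seen. It stood at 81.7 and 162 CPM in cello and 73.7 and 96.4 CPM in wild-type, a ratio of 0.506 between the cello libraries. Col1a1 stood at 659 and 154 CPM in cello against 254 and 280 CPM in wild-type, whereas Col1a2, which encodes its partner chain, stood at 3477 and 2690 CPM in cello against 2994 and 2842 CPM in wild-type. Sparc, the gene of osteonectin, stood at 5190 and 3886 CPM in cello against 4840 and 4933 CPM in wild-type. Fibroblasts and other connective tissue cells also make these 3. Mgp, an inhibitor of calcification that cartilage also makes and that was named after its values were seen, had 75.0 and 75.0 CPM in cello against 60.3 and 51.8 CPM in wild-type. It was the 1 matrix gene with an unadjusted limma p below 0.05 (0.0072), with an adjusted p of 0.419 in limma, 0.451 in edgeR and 0.0424 in DESeq2.

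The 2 tested osteocyte genes outside the members were likewise highest in cello replicate 1 and lowest in cello replicate 2, with a median gap of 2.90. Sost, which encodes sclerostin, the osteocyte inhibitor of Wnt signalling, stood at 20.6 and 1.66 CPM in cello against 2.997 and 2.32 CPM in wild-type. Dkk1, a further Wnt inhibitor, stood at 8.55 and 1.10 CPM in cello against 2.72 and 1.68 CPM in wild-type. The ratio between the cello libraries was 12.4 for Sost and 7.81 for Dkk1. The hormone gene Fgf23 was at most 0.169 CPM (8 reads), and Pdpn was listed at 0 in all libraries.

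Regulators and mineral genes had smaller gaps, with medians of 0.35 and 0.30. Of 12 tested osteoblast regulators 11 were higher in cello replicate 1, and Dlx3, a transcription factor gene of osteoblasts, was among those with a gap of at least 2-fold (a ratio of 2.70, named after its values were seen). The 3 most abundant regulators had small gaps, with 187 and 205 CPM in cello against 180 and 185 CPM in wild-type for the BMP receptor gene Bmpr1a. Atf4 had 119 and 114 CPM in cello against 116 and 111 CPM in wild-type, and the Wnt co-receptor gene Lrp5 had 82.6 and 80.4 CPM in cello against 84.3 and 87.4 CPM in wild-type. All 7 mineral and phosphate genes were higher in cello replicate 1, by 1.02 to 1.95 times. The top of this range was Smpd3, a sphingomyelinase needed for bone mineralization, at 214 and 110 CPM in cello and 158 and 160 CPM in wild-type. Ank, a pyrophosphate transporter gene, stood at 147 and 115 CPM in cello and 128 and 144 CPM in wild-type, and Fam20c, the kinase gene of secreted phosphoproteins, at 94.6 and 77.1 CPM in cello and 91.4 and 101 CPM in wild-type. The phosphate transporter gene Slc20a1, named after its values were seen, had an unadjusted limma p of 0.0070 (adjusted p = 0.419), with 51.8 and 51.0 CPM in cello against 66.2 and 63.0 CPM in wild-type.

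Markers of other cells of bone and marrow were also higher in cello replicate 1, apart from those of macrophages and the erythroid gene Alas2. All 10 tested osteoclast markers were higher in cello replicate 1 than in cello replicate 2, with a median gap of 0.78, and the 13 listed markers, all detected in every library, summed to 600 and 284 CPM in cello and 320 and 319 CPM in wild-type. Ctsk, the collagen-degrading protease of osteoclasts, stood at 191 and 85.9 CPM in cello and 92.6 and 86.9 CPM in wild-type. Acp5, the tartrate-resistant acid phosphatase, stood at 111 and 35.3 CPM in cello and 46.5 and 44.3 CPM in wild-type, and the gelatinase gene Mmp9 at 118 and 31.9 CPM in cello and 36.6 and 38.9 CPM in wild-type. In these 3 the other libraries lay close together. The decoy receptor gene Tnfrsf11b, which restrains osteoclast formation, stood at 90.9 and 52.3 CPM in cello and 63.2 and 62.5 CPM in wild-type. The growth factor gene Csf1 stood at 21.9 and 18.3 CPM in cello and 17.1 and 15.8 CPM in wild-type, and Tnfsf11, the gene of RANKL, was at most 0.495 CPM.

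Marrow markers had median gaps of 2.56 (neutrophil) and 2.004 (erythroid) between the cello libraries, and of -0.78 and -0.85 between the wild-type libraries. The 11 neutrophil markers, all detected in every library, summed to 99.9 and 10.03 CPM in cello and 22.6 and 47.2 CPM in wild-type. S100a9, their most abundant gene, stood at 33.1 and 2.30 CPM in cello and 5.55 and 14.4 CPM in wild-type. Its partner gene S100a8 had 21.3 and 1.71 CPM in cello against 3.54 and 7.54 CPM in wild-type, and the granule protein gene Ngp had 11.0 and 1.45 CPM in cello against 4.40 and 7.80 CPM in wild-type. Cello replicate 2 was the lowest library in all 3. The 8 erythroid markers, also all detected, summed to 75.0 and 28.3 CPM in cello and 26.7 and 61.1 CPM in wild-type. Slc4a1, the red cell anion exchanger gene, had 33.0 and 5.65 CPM in cello against 8.95 and 20.0 CPM in wild-type. Alas2, the heme synthesis gene of red cell precursors, departed from it, with 17.1 and 19.0 CPM in cello against 10.8 and 26.9 CPM in wild-type. All 9 tested neutrophil markers and all 8 erythroid markers were higher in wild-type replicate 2 than in wild-type replicate 1. Over all genes tested the median gap between the wild-type libraries was -0.01. Of the members 4 were higher in wild-type replicate 2, Mmp13 by 2.35 times, Dmp1 by 1.29, Spp1 by 1.25 and Ibsp by 1.07 times, and 6 were higher in wild-type replicate 1, by 1.05 (Mepe) to 1.35 (Sp7) times. The 8 macrophage markers had a median gap of -0.05 between the cello libraries and summed to 239 and 236 CPM in cello and 244 and 232 CPM in wild-type. Csf1r, the receptor gene for the ligand encoded by Csf1, had 67.9 and 57.1 CPM in cello against 65.4 and 65.2 CPM in wild-type. Mrc1, the mannose receptor gene, had 56.7 and 59.4 CPM in cello against 54.4 and 51.8 CPM in wild-type, and the complement gene C1qa had 26.5 and 28.4 CPM in cello against 28.4 and 26.97 CPM in wild-type. The part of any of these cells in the values of the members was not tested.

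Markers of cartilage, the tissue that capsule bone replaces, had a smaller median gap than the members. In whole cochleae the part of these transcripts that came from the capsule cannot be told. The 18 markers, all detected, summed to 21718 and 16285 CPM in cello and 18049 and 18342 CPM in wild-type. The median gap between the cello libraries was 0.34 over the 16 tested, of which 10 were higher in cello replicate 1. Among them, Acan had a ratio of 1.51 and Chad of 1.93. The fibrillar collagen gene Col2a1 stood at 6599 and 6230 CPM in cello and 6425 and 6629 CPM in wild-type, Col9a1 at 4099 and 2963 CPM in cello and 3036 and 2974 CPM in wild-type, and Col11a2 at 4081 and 2282 CPM in cello and 2691 and 2782 CPM in wild-type. Gaps of at least 2-fold were found for Col11a1 and Col10a1, the collagen gene of hypertrophic chondrocytes (ratios of 2.05 and 5.54), and, in the other direction, for Matn1 (0.374), all named after their values were seen. Skeletal muscle markers, a sign of tissue outside the capsule, summed to 3.89 and 4.76 CPM in cello and 6.26 and 27.4 CPM in wild-type.

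**Figure D5:**
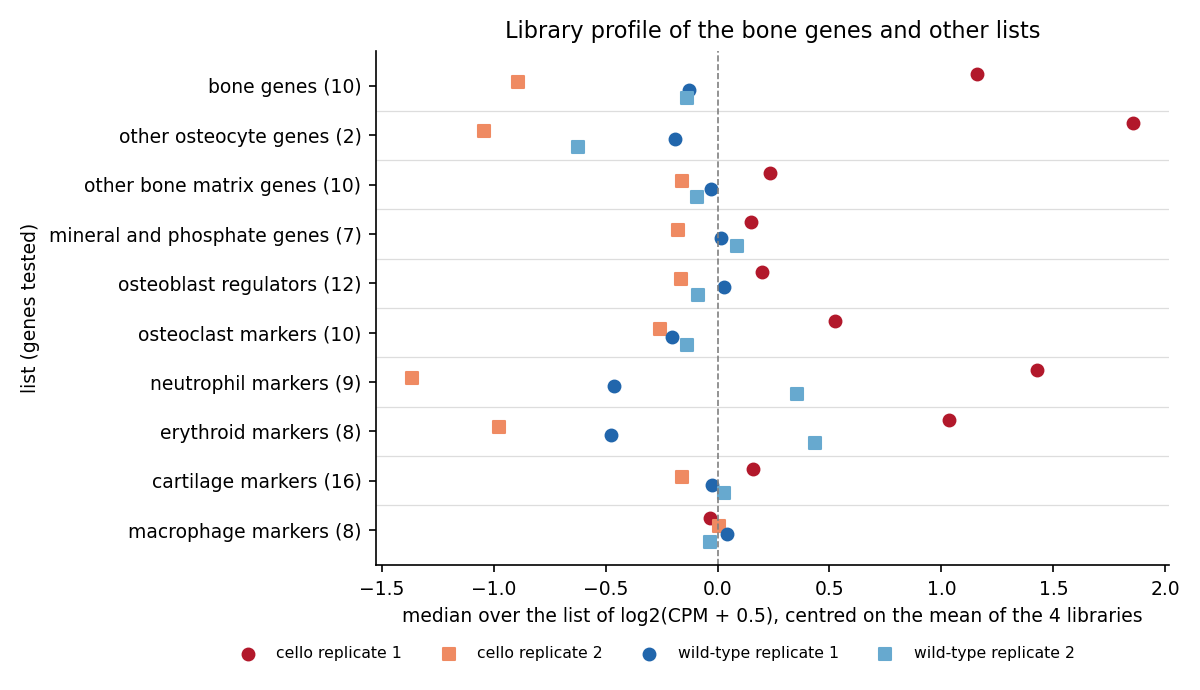
Median over the tested genes of each list of log2(CPM + 0.5), after each gene is centred on its mean over the 4 libraries; the number of genes is given in parentheses. Cello replicate 1 and cello replicate 2 lie at 1.16 and -0.89 for the bone genes and at 1.42 and -1.36 for the neutrophil markers, and near 0 for the macrophage markers.

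All 11 markers of the cochlea were detected in every library. Both cello libraries lay below both wild-type libraries in 6 of them, against 28.7% of all genes tested. These were the outer hair cell genes Slc26a5 and Ocm, and Pou4f3, Kcne1, Kcnq1 and Gjb2. Slc26a5 stood at 9.80 and 9.69 CPM in cello and 20.8 and 24.9 CPM in wild-type. Otof, a further hair cell gene, stood at 67.1 and 63.4 CPM in cello and 65.9 and 62.1 CPM in wild-type. The cello libraries differed from each other in Coch, a gene of lateral wall fibrocytes, with 1162 and 215 CPM against 327 and 334 CPM in wild-type. They also differed in Tecta, a tectorial membrane gene, with 35.1 and 251 CPM against 115 and 127 CPM in wild-type. Otos had 1679 and 591 CPM in cello against 763 and 552 CPM in wild-type. Tectb had 748 and 2633 CPM in cello against 2474 and 2594 CPM in wild-type. Ocm had 33.9 and 16.6 CPM in cello against 116 and 108 CPM in wild-type. Ikzf2 itself stood at 17.7 and 16.9 CPM in cello and 22.9 and 18.5 CPM in wild-type, which does not check the genotype of a point mutation. Each library held both Xist, the transcript of the inactive X chromosome, and Y-linked transcripts, and their proportions differed. Xist stood at 827 and 163 CPM in cello and 372 and 286 CPM in wild-type, and the Y-linked gene Ddx3y at 13.8 and 95.1 CPM in cello and 56.2 and 56.2 CPM in wild-type. The part of sex in the values of the members, of which Phex lies on the X chromosome, was not tested.

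The genes nearest to the members in their pattern were sought among 11353 other genes with a mean of at least 5 CPM, by the root mean square distance over the 4 libraries between centred log2(CPM + 0.5) values and the mean profile of the members. Among the nearest were Col1a1 (0.062), Ceacam16 (0.078), Sgms2 (0.081), Egr1 (0.092) and Col22a1 (0.10), followed by Ptgis (0.12), Tnfaip2 (0.14), Lpl (0.15) and Acp5 (0.15). Ceacam16, a glycoprotein gene of the tectorial membrane, stood at 15.3 and 3.27 CPM in cello and 6.40 and 5.93 CPM in wild-type. Egr1, an immediate early gene, stood at 92.2 and 27.4 CPM in cello and 37.9 and 43.9 CPM in wild-type. These genes share 4 libraries and nothing more is read from the likeness. Ibsp was the member nearest to the mean profile (0.19) and Spp1 the farthest (0.61).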

How the data were processed

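RNA of whole cochleae was sequenced from 2 cello and 2 wild-type libraries after TruSeq preparation, per the labels' protocols. The deposited values are CPM per gene, scaled by the authors to all counted alignments, as the sums show. Per the submitters' processing notes, TopHat and the build GRCm38 were used. Which program counted the reads, with what strand setting and annotation, is not given in the sources used here, so reads of overlapping genes on opposite strands cannot be told apart. Among the members only Phex overlaps a listed gene on the opposite strand, Gm23798, which was at 0 CPM in every library. The 5 entries that name no gene were left out. Among them, alignments that were not unique made up 13.0% to 14.6% of each library, those outside genes 9.54% to 12.5% and ambiguous ones 3.40% to 3.53%.

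Every value (100%) was a whole multiple of the smallest in its file (within 0.001 of a read), which gave back whole reads for edgeR 4.0.16 and DESeq2 1.42.0. A read was worth 0.0201 to 0.0237 CPM. Symbols were found for 36504 of 37239 identifiers, and positions and exon lengths are those of GENCODE M21. Genes reaching 1 CPM in 2 or more of the 4 libraries were tested with limma 3.58.1 (R 4.3.3) on log2(CPM + 0.5), cello minus wild-type, with a variance trend, two-sided, Benjamini-Hochberg adjustment over 14721 genes and a threshold of 0.05. This scale understates the change of low genes. Methods were tested on simulated data with the same small spread in both genotypes. That test does not cover genes whose cello libraries differ as those of the members do. Summaries used pandas 2.3.3 under Python 3.11.15, and matplotlib 3.10.9 drew the plots.

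The members and lists were chosen with earlier results of these data known. All members are named, with the 3 most abundant genes of each other list (for the muscle list, the sum only) and the 10 genes nearest in pattern. Other genes were named after their values were seen. Some genes that this rule names are not reported here. The alternatives are listed with their effect in the closing section.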

Additional observations from a re-analysis of the deposited data

How the results depend on the processing

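The count of members passing an adjusted p of 0.05 was 0 in each direction in all 15 alternatives, namely pseudocounts of 0.1 and 1, TMM and median-of-ratios rescaling, CPM over reads in genes, no filter on low values, a minimum mean of 5 CPM, the replicate block, limma without a trend, edgeR, DESeq2 and leaving out each of the 4 libraries. Over all genes, 0 passed in limma (1603 at an unadjusted p under 0.05), in edgeR and with the block, 116 higher and 79 lower in DESeq2, and 90 higher without wild-type replicate 2. Equal replicate numbers are not said to pair the libraries, and the deviations of replicate 1 from its group mean correlated by 0.13 between genotypes over genes. With the replicate block the smallest adjusted p of a member was 0.573.

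The median log2 fold change of the members, 0.16 in limma, was 0.50 in edgeR and 0.50 in DESeq2, which like the median without Spp1 (0.06) were added after seeing the data. The other alternatives on all 4 libraries gave 0.16 to 0.25, and leaving out 1 library gave from -0.63 to 1.18. In edgeR and DESeq2 the values of Ibsp (0.51 and 0.52), Sp7 (0.23 and 0.23), Alpl (0.23 and 0.23), Dmp1 (1.11 and 1.12), Mepe (1.32 and 1.33) and Mmp13 (1.19 and 1.19) were over 1.5 times those in limma, and those of Phex (0.67 and 0.67) and Spp1 (0.29 and 0.29) were not. The median gap between the cello libraries ran from 2.23 to 2.30. Bglap, at -0.00031, turned to 0.0027 at a pseudocount of 1, 0.0403 with TMM, 0.0386 with median-of-ratios, 0.0274 with CPM over reads in genes, and 0.48 in edgeR and 0.48 in DESeq2. Bglap2, at -0.02, turned to 0.0164 with TMM, 0.0149 with median-of-ratios, 0.00092 with CPM over reads in genes, 0.43 in edgeR and 0.44 in DESeq2. The count tools compare mean counts, which weigh cello replicate 1 more than a mean of logarithms does. Leaving out 1 library gave ranges of -1.14 to 1.21 for Ibsp, -1.19 to 1.19 for Bglap, -1.16 to 1.11 for Bglap2, -0.62 to 0.72 for Sp7 and -0.54 to 0.67 for Alpl. The ranges were -0.46 to 1.80 for Dmp1, -0.24 to 1.16 for Phex, -1.19 to 2.09 for Mepe, -0.65 to 2.0001 for Mmp13 and 0.09 to 0.42 for Spp1.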

Other observations

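Genes beside the members on the chromosome were examined too. Dmp1, Ibsp, Mepe and Spp1 lie within 238 kb of chromosome 5, on the same strand, and their ratios between cello replicate 1 and cello replicate 2 were 4.83, 5.11, 11.1 and 1.16. The 6 other tested genes within 150 kb on either side had ratios from 0.678 to 1.36, among them Sparcl1, a relative of Sparc, with 4033 and 2958 CPM in cello and 3301 and 3023 CPM in wild-type. Dspp, a further gene of this family in the cluster and a product of tooth-forming cells, was at most 0.901 CPM and was not tested.

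Around Bglap and Bglap2, 11 tested genes other than Bglap3 had ratios from 0.625 to 2.53. The top of this range was Paqr6, a membrane receptor gene beside Bglap3, with 49.4 and 19.5 CPM in cello and 23.0 and 23.9 CPM in wild-type. Bglap3 stood at 10.2 and 5.48 CPM in cello and 7.84 and 4.82 CPM in wild-type, a ratio of 1.86 between the cello libraries where Bglap and Bglap2 had 5.28 and 5.06. These genes were chosen for their position after the data were seen, and no test was made.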
